A study of Mus musculus with 29 samples.

Results

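A set of 9 genes for RNA-binding proteins known from germ cells were followed in mouse ovaries of 2 genotypes at 4 ages. They were taken as a list by symbol, Dazl, Ddx4, Nanos2, Nanos3, Dnd1, Ybx2, Cpeb1, Msi1 and Msi2, so that their levels could be read as a measure of the germ cell share of the tissue, and all 9 of 9 were among the 51912 gene IDs of the deposited count table. The 29 samples were bulk ovary preparations from wild-type mice (Cdkn1b +/+, here WT) and from mice homozygous for a null allele of Cdkn1b (Cdkn1b -/-, here Cdkn1b-null), which lack the cyclin-dependent kinase inhibitor p27Kip1 in the whole animal. Each genotype was sampled at 4 ages, written E13.5 and E18.5 for days of embryonic development, PND8 for day 8 after birth and 12wk for adults of 12 weeks. There were 4 WT samples at each age, 4 Cdkn1b-null samples at E18.5 and 3 at each of the other ages. In the Cdkn1b-null groups of 3 the replicates carry the numbers 1, 3 and 4. All ovaries were dissociated with papain before RNA extraction. The labels do not say whether samples were littermates, pools or separate animals, so the p-values below measure the spread between these samples.

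These proteins control when and where messenger RNAs of germ cells are stored, translated or destroyed. Fetal ovarian germ cells divide by mitosis, enter meiosis before birth and arrest at the end of meiotic prophase as oocytes enclosed in follicles, and much of this path is steered after transcription. DAZL is a translational regulator that licenses germ cells for sexual differentiation, and DDX4 (the mouse vasa homolog) is a DEAD-box helicase of the germ granule. NANOS2 and NANOS3 recruit deadenylases to their targets, NANOS3 in migrating primordial germ cells and NANOS2 in fetal male germ cells, and DND1 works with NANOS proteins on U-rich transcripts. YBX2 (MSY2) packages stored transcripts in growing oocytes, and CPEB1 binds the cytoplasmic polyadenylation element and controls poly(A) tail length during meiosis. The Musashi proteins MSI1 and MSI2 also bind target transcripts in germ cells, but both are known as regulators in neural and other somatic progenitors as well.

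Promoter sequences were available from RefSeq (GRCm38.p6, 250 bases before to 50 after a transcript start) for 7 of the 9 genes, with 10 windows in all; Dnd1 and Msi1 had none. The 6 windows below, the first of each gene in the table, are shown because their genes were called at an age step in both genotypes: Dazl, Ddx4, Nanos3 and Cpeb1 lower and Msi2 higher at PND8 than at E18.5, and Ybx2 higher at E18.5 than at E13.5. Capitals mark each match, on either strand, to the E-box CACGTG or to the E2F-type motif GGCGGGA.
Dazl (chr17:50293571-50293870, minus strand): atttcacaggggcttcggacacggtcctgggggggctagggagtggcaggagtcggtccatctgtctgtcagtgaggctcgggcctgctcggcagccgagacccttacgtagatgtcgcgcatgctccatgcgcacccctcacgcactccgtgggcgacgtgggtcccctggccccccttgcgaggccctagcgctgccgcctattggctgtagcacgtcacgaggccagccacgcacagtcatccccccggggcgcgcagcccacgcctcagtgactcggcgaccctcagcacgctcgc
Ddx4 (chr13:112652261-112652560, minus strand): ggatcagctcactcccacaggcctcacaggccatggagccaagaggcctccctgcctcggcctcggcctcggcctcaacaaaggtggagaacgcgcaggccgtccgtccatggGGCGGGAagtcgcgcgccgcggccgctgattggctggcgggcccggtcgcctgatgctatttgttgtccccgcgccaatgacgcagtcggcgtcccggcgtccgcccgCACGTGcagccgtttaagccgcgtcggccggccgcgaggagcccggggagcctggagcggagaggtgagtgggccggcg
Nanos3 (chr8:84176503-84176802, minus strand): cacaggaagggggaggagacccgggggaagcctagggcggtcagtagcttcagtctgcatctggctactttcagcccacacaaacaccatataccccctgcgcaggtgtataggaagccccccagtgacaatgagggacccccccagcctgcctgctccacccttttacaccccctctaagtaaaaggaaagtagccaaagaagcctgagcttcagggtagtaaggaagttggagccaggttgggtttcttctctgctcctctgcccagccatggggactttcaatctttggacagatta
Cpeb1 (chr7:81454709-81455008, minus strand): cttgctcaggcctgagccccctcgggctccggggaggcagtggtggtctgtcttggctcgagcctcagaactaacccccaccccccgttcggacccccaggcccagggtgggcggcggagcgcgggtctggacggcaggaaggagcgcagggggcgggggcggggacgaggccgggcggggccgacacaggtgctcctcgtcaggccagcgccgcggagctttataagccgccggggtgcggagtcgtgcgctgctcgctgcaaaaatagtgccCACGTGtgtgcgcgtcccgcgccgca
Ybx2 (chr11:69935649-69935948, plus strand): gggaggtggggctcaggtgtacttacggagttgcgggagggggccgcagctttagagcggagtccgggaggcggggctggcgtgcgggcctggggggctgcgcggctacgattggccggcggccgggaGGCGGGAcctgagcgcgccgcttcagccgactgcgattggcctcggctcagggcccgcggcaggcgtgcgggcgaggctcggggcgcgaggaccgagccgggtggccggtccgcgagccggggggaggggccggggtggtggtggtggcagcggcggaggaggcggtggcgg
Msi2 (chr11:88718228-88718527, minus strand): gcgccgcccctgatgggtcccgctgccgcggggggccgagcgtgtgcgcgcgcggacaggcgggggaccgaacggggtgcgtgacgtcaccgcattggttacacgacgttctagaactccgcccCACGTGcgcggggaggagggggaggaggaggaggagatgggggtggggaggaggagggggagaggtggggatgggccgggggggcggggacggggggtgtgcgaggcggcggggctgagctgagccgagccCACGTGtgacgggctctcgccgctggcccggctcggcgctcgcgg
The windows of Dazl, Ddx4, Cpeb1, Ybx2 and Msi2 are rich in G and C, at 68.7%, 72.0%, 72.7%, 78.0% and 76.3% of bases, against a median of 52.7% over the 32851 windows of the table. They hold 28 to 40 CpG dinucleotides, where the median window holds 7. The windows of Nanos2 and Nanos3 hold 0 and 3, at 53.0% and 55.3% G and C. Ddx4 has a CACGTG that begins 29 bases before the start and a GGCGGGA that begins 137 bases before it. Cpeb1 has a CACGTG that begins 24 bases after the start, Ybx2 a GGCGGGA 122 bases before it, and Msi2 CACGTG matches 126 bases before and 5 bases after it. Dazl and Nanos3 have neither motif. The general E-box form CANNTG, which also covers CACGTG, begins 192 bases before the start in Dazl and 193 and 148 bases before it in Nanos3. Among all 32851 windows, the share with CACGTG is 7.15%, with GGCGGGA 11.3% and with CANNTG 72.3%. A homeobox-type motif, TAATTG, was also searched on both strands, is in 8.0% of all windows, and is in none of the 10 windows of these genes. These matches describe the letters of the windows only.

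The genes lie on 7 chromosomes of GRCm38 in GENCODE M21, whose positions are used here because the build of the deposited counts is not given in the sources used here. Dazl is at chr17:50279395-50293636, Ddx4 at chr13:112598333-112652475, Nanos2 at chr7:18987400-18988962, Nanos3 at chr8:84173731-84185217 and Dnd1 at chr18:36763671-36766214. Ybx2 is at chr11:69935796-69941605, Cpeb1 at chr7:81347026-81455465, Msi1 at chr5:115429599-115455698 and Msi2 at chr11:88339382-88718513. Nanos2, Ybx2 and Msi1 lie on the plus strand and the other 6 on the minus strand. The joined exons of a gene span from 0.924 kb in Nanos3 to 10.4 kb in Msi2. The exons of Nanos2 share 49.0% of their length with Gm45058, a predicted gene on the opposite strand, and those of Dnd1 share 140 bases with Wdr55 on the opposite strand. Whether the counting used strand is not given in the sources used here, so reads in these shared stretches cannot be assigned to one partner.

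Library totals ran from 14.1 to 48.2 M counts, so that 3 counts, taken as the upper limit for a gene without a count, corresponded to 0.0622 to 0.213 CPM (counts scaled to a common library size). The scaling used TMM factors over all 29 libraries. The targeted gene matched the labels: Cdkn1b was at 19.2 to 26.2 CPM in WT and 4.30 to 4.71 in Cdkn1b-null libraries at E13.5, at 95.1 to 123 and 9.55 to 15.7 at E18.5, at 131 to 174 and 64.3 to 80.7 at PND8, and at 126 to 259.9 and 41.4 to 56.9 at 12wk. The genotypes did not overlap at any age. The main edgeR fit took the groups compared alone, with low counts filtered and no block. By it Cdkn1b was called lower at E13.5, E18.5 and PND8 (adjusted p at most 0.0216) but not at 12wk (log2 fold change -1.85, adjusted p 0.211). At 12wk it was called with DESeq2 (adjusted p 5.01e-07) and with edgeR on all groups in 1 fit (0.000105). At E13.5 and PND8 that call was lost in 7 and 4 of the alternatives. Germ cell marker lists moved with age as the plot of summed marker levels shows. The 8 primordial germ cell markers together were at 404 to 1118 CPM at E13.5 and 1.11 to 8.30 CPM at 12wk. The sum of the 14 meiotic markers peaked at E18.5 (774 to 2093 CPM), and that of the 15 oocyte markers at PND8 (335 to 1988 CPM). Not every marker followed its sum. In WT the mean of Stra8 was 7.33 CPM at E13.5 and 0.180 CPM at E18.5, while Sycp3 rose from 12.3 to 385.5 CPM. The WT mean of Figla was 44.4 CPM at E18.5 and 3.74 CPM at PND8, while Zp3 rose from 0.288 to 62.4 CPM. Of the 14 meiotic markers, Sycp1 had no count in any 12wk library. The 14 together were still at 46.8 to 118 CPM at 12wk, and the oocyte markers at 6.31 to 185.5 CPM. Single libraries stood apart in ways that touch the results. At E13.5 the Cdkn1b-null replicate 3 had Stra8, the inducer of meiotic entry, at 74.6 CPM against 2.58 to 10.9 in the other 6, and traces of Y-linked genes (10 counts of Ddx3y and 11 of Eif2s3y). The source of these traces was not tested and cannot be settled from the counts. In the E13.5 WT replicate 3, 19.0% of counts were of haemoglobin and other erythroid genes, against 0.703% to 1.05% in the other libraries of that age. Neural markers summed to 440.2 CPM in the E13.5 WT replicate 1 and to at least 29.2 CPM in every WT library of that age. They summed to at most 26.1 CPM in the Cdkn1b-null libraries and in those of later ages.

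**Figure D1:**
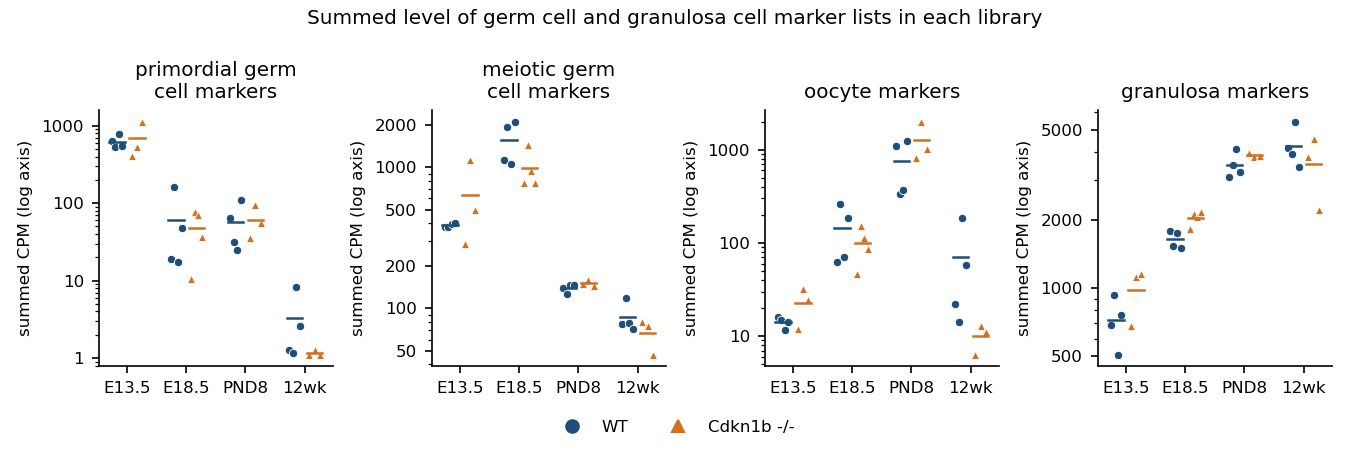
Summed level of 4 marker lists in each library (CPM, log axis) against age, with WT as circles, Cdkn1b-null as triangles and group means as bars. The primordial germ cell list is highest at E13.5 (404 to 1118 CPM), the meiotic list at E18.5 (774 to 2093 CPM) and the oocyte list at PND8 (335 to 1988 CPM), while the granulosa list rises from 509 CPM in the lowest E13.5 library to 3099 CPM in the lowest PND8 library.

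Dazl and Ddx4 were the most abundant of the 9 genes per length at E13.5 and were under 2 CPM in every 12wk library. Dazl in WT was at 199, 158, 254 and 215 CPM at E13.5, 82.8, 197, 77.2 and 154 CPM at E18.5, 3.30, 1.70, 1.63 and 4.61 CPM at PND8, and 0.613, 0.315, 1.85 and 0.249 CPM at 12wk. In Cdkn1b-null ovaries it was at 126, 364 and 262 CPM, then 61.2, 133, 93.8 and 75.0 CPM, then 2.59, 6.56 and 3.97 CPM, and lastly 0.426, 0.243 and 0.276 CPM. Every E18.5 library lay above every PND8 library, whereas the ranges of E13.5 and E18.5 met in both genotypes, and the 12wk WT replicate 3 alone lay within the PND8 range. In WT the fall between E18.5 and PND8 was 48.7-fold (log2 fold change -5.61, SE 0.48, adjusted p 3.25e-06; edgeR quasi-likelihood test with Benjamini-Hochberg adjustment over all genes, as for every adjusted p here), and in Cdkn1b-null ovaries it was 21.7-fold (-4.44, SE 0.43, adjusted p 4.78e-05).

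Ddx4 followed the same order of ages. In WT it was at 105, 97.0, 122 and 125 CPM at E13.5, 44.6, 52.9, 33.1 and 53.1 CPM at E18.5, 8.06, 3.18, 2.25 and 9.36 CPM at PND8 and 0.263, 0.409, 0.783 and 0.591 CPM at 12wk. The Cdkn1b-null libraries gave 72.3, 221 and 149 CPM, then 24.4, 39.1, 34.0 and 24.4 CPM, then 6.16, 12.6 and 5.52 CPM, and 0.384, 0.108 and 0.311 CPM. No 2 consecutive ages overlapped in either genotype. The WT log2 fold changes were -1.30 (SE 0.17), -3.10 (SE 0.43) and -3.40 (SE 0.57) for the successive steps, and the Cdkn1b-null ones -2.27 (SE 0.36), -1.96 (SE 0.32) and -4.85 (SE 0.59), with adjusted p of at most 0.00378. As these are bulk samples, fewer germ cells and less RNA of a gene per germ cell cannot be told apart for any gene here.

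**Figure D2:**
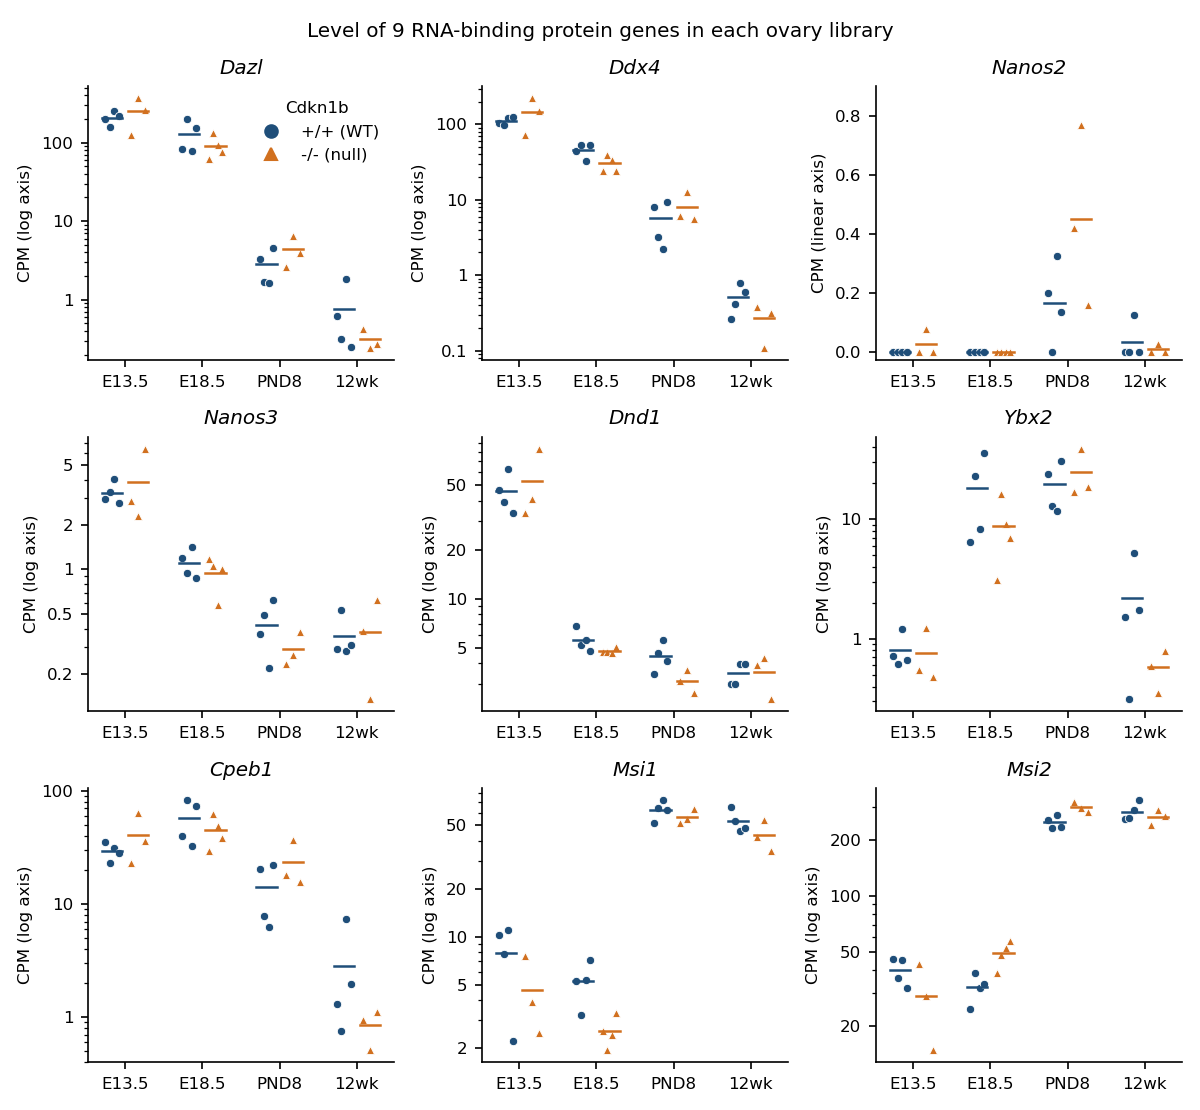
Level of each gene in every library (CPM) against age, with WT as circles, Cdkn1b-null as triangles and group means as bars. The axis is logarithmic except for Nanos2, and the panels show lower means of Dazl and Ddx4 at each later age, Ybx2 highest at E18.5 and PND8, and Msi1 and Msi2 higher at PND8 and 12wk than before birth.

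The genes of the early germ cell, Nanos3 and Dnd1, were highest at E13.5, and Nanos2 was close to the limit of detection throughout. Nanos3 was at 2.95, 3.32, 4.01 and 2.78 CPM in WT and 2.89, 2.28 and 6.38 CPM in Cdkn1b-null libraries of E13.5. At E18.5 it was at 1.19, 0.951, 1.41 and 0.875 CPM in WT and 1.17, 1.05, 0.577 and 1.00 CPM in Cdkn1b-null ovaries. At PND8 and 12wk all 14 libraries held 5 to 23 counts, or 0.135 to 0.624 CPM. It fell by 1.57 (SE 0.32) and 1.45 (SE 0.38) on the log2 scale at the first 2 steps in WT and by 2.00 (SE 0.43) and 1.75 (SE 0.43) in Cdkn1b-null ovaries, with adjusted p of at most 0.00866. Between PND8 and 12wk the log2 fold change was -0.18 (SE 0.42) in WT and 0.47 (SE 0.65) in Cdkn1b-null ovaries, and neither passed the test.

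Dnd1, too, was called lower at the first step in both genotypes, with a larger log2 fold change than Nanos3, a difference that was not tested. At E13.5 it was at 46.8, 39.2, 62.9 and 33.9 CPM in WT and 33.9, 41.2 and 82.7 CPM in null ovaries at that age, and at 6.80, 5.21, 5.59 and 4.79 CPM and 4.70, 4.67, 4.62 and 5.01 CPM at E18.5. The first step was a fall of 8.26-fold in WT (log2 fold change -3.05, SE 0.23, adjusted p 2.09e-05) and of 11.0-fold in Cdkn1b-null ovaries (-3.46, SE 0.29, adjusted p 0.000158). From E18.5 on the gene stayed within 2.42 to 6.80 CPM in every library, 12wk included. The overlapping gene Wdr55 was at 16.7 to 33.8 CPM in all 29 libraries, and its part in the late Dnd1 level was not tested.

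Nanos2 had no count in any of the 4 WT libraries at E13.5 nor in any of the 8 libraries at E18.5, which allows up to 0.132 to 0.213 CPM per library at their depths. The Cdkn1b-null E13.5 replicate 3, the library with high Stra8 and traces of Y-linked genes, held 2 counts. At PND8 the WT libraries held 6, 0, 12 and 5 counts and the Cdkn1b-null libraries 18, 26 and 5 counts, the largest numbers of the series. At 12wk there were 4 counts in the WT replicate 3, 1 count in the Cdkn1b-null replicate 3 and none elsewhere. The antisense neighbour Gm45058 had 0 to 6 counts per library, with 4 or 5 counts in 3 of the 7 PND8 libraries. The gene passed the filter on low counts in the PND8 genotype comparison alone.

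Ybx2 and Cpeb1, which act on stored oocyte transcripts, had their highest group means after E13.5, Cpeb1 in WT at E18.5 and Ybx2 in Cdkn1b-null ovaries at PND8. Ybx2 in WT was at 0.726, 0.618, 1.21 and 0.663 CPM at E13.5, 6.49, 22.9, 8.31 and 35.4 CPM at E18.5, 23.8, 12.8, 11.7 and 30.4 CPM at PND8, and 1.52, 0.315, 5.20 and 1.74 CPM at 12wk. The Cdkn1b-null libraries gave 0.553, 1.23 and 0.478 CPM, then 3.08, 16.2, 9.04 and 6.97 CPM, then 17.0, 38.2 and 18.5 CPM, and 0.597, 0.352 and 0.794 CPM. The E18.5 libraries lay above all E13.5 libraries of their genotype, and the step was a rise of 22.8-fold in WT (log2 fold change 4.51, SE 0.59, adjusted p 0.000369) and 11.3-fold in Cdkn1b-null ovaries (3.50, SE 0.62, adjusted p 0.00417). The Cdkn1b-null call was lost with limma-voom (3.44, adjusted p 0.0801; 1.27e-08 to 0.0801 over all alternatives). Between E18.5 and PND8 the WT value was 0.00 (SE 0.54, adjusted p 0.998), while Cdkn1b-null ovaries rose by 1.43 (SE 0.54, adjusted p 0.0434). The Cdkn1b-null call at this second step was lost on leaving out any one of 5 libraries (E18.5 replicates 1, 3 and 4, PND8 replicates 3 and 4), and over all alternatives its adjusted p ran from 0.000354 to 0.141. From PND8 to 12wk Ybx2 had log2 fold changes of -3.09 (SE 0.70) in WT and -5.31 (SE 0.49) in Cdkn1b-null ovaries, and without the 12wk WT replicate 3, whose oocyte markers summed to 185.5 CPM against 14.0 to 57.6 CPM in the other 3, the WT value was -3.96.

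Cpeb1 in WT was at 35.4, 23.3, 31.5 and 28.5 CPM at E13.5, 39.6, 82.3, 32.6 and 73.9 CPM at E18.5, 20.3, 7.78, 6.21 and 21.9 CPM at PND8 and 1.31, 0.756, 7.36 and 1.96 CPM at 12wk. In Cdkn1b-null ovaries it was at 23.1, 63.1 and 36.0 CPM, then 29.4, 62.1, 48.6 and 38.6 CPM, then 18.1, 37.1 and 15.6 CPM, and 0.938, 0.514 and 1.10 CPM. The same E18.5 WT libraries (replicates 2 and 4) were the high ones for Dazl, Ybx2 and Cpeb1, and the same 2 had the largest sums of oocyte markers (259 and 184 CPM against 62.6 and 71.5 CPM) and smaller sums of erythroid genes (6688 and 1575 CPM against 24420 and 32830 CPM). In WT the E18.5 level was called higher than that at E13.5 (log2 fold change 0.94, SE 0.29, adjusted p 0.0318), but the ranges overlapped and the call was lost without any one of E13.5 replicates 2 and 4 or E18.5 replicates 2 and 4 (adjusted p over all alternatives 0.00881 to 0.176). The fall between E18.5 and PND8 was 4.34-fold in WT (-2.12, SE 0.48, adjusted p 0.00244). In Cdkn1b-null ovaries it was 1.96-fold (-0.97, SE 0.37, adjusted p 0.0446), a call lost on leaving out any one of 5 libraries (E18.5 replicates 2, 3 and 4, PND8 replicates 1 and 4; 0.00260 to 0.148 over all alternatives). The last step was -2.23 in WT (SE 0.74, adjusted p 0.0480), which was -3.30 without the 12wk replicate 3 and lost its call without any one of PND8 replicates 1, 2 and 4 or 12wk replicates 1, 2 and 4 (0.00273 to 0.156 over all alternatives). In Cdkn1b-null ovaries it was -4.70 (SE 0.49, adjusted p 0.00154).

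The Musashi genes ran against Dazl, Ddx4, Nanos3, Dnd1 and Cpeb1, with Pearson's r of log2 CPM from -0.930 to -0.514 over the 29 libraries. With Ybx2 the r was 0.0989 for Msi1 and 0.160 for Msi2. With Nanos2, close to the limit of detection, it was 0.524 and 0.528. Msi1 in WT was at 10.3, 7.76, 11.1 and 2.21 CPM at E13.5, 5.24, 3.20, 5.34 and 7.12 CPM at E18.5, 51.8, 64.4, 71.5 and 62.0 CPM at PND8 and 64.7, 53.0, 45.8 and 47.98 CPM at 12wk. Msi1 in Cdkn1b-null ovaries was at 7.56, 3.896 and 2.498 CPM, then 2.55, 1.94, 2.40 and 3.30 CPM, then 51.7, 54.4 and 63.6 CPM, and 42.4, 53.7 and 34.6 CPM. The fetal and postnatal ranges were far apart in both genotypes, and the rise from E18.5 to PND8 was 11.2-fold in WT (log2 fold change 3.48, SE 0.21, adjusted p 3.07e-07) and 21.3-fold in Cdkn1b-null ovaries (4.42, SE 0.17, adjusted p 1.42e-08).

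Msi2 in WT was at 45.5, 36.2, 45.1 and 32.0 CPM at E13.5, 24.7, 38.6, 31.9 and 33.6 CPM at E18.5, 254, 232, 270.3 and 235 CPM at PND8 and 257, 260.4, 288 and 325 CPM at 12wk. In Cdkn1b-null ovaries it was at 43.2, 28.8 and 14.8 CPM, then 38.5, 48.2, 52.1 and 56.9 CPM, then 319, 295 and 281 CPM, and 241, 287 and 269 CPM. Its rise from E18.5 to PND8 was 7.20-fold in WT (2.85, SE 0.15, adjusted p 1.79e-07) and 5.87-fold in Cdkn1b-null ovaries (2.55, SE 0.13, adjusted p 6.38e-08). At 12wk the group means of Msi1 were 84.6% (WT) and 69.75% (Cdkn1b-null) of its highest group mean, and those of Msi2 94.8% and 89.15%. In the same libraries Ddx4 was at 0.108 to 0.783 CPM. Read against the label of the list, Msi1 and Msi2 did not follow the germ cell markers in these ovaries. The 9 granulosa markers summed to 509 to 1159 CPM at E13.5, 1509 to 2164 at E18.5, 3099 to 4113 at PND8 and 2220 to 5428 at 12wk, and the 5 theca and luteal markers to 17.8 to 58.5, 156 to 398, 1061 to 2296 and 3238 to 12660 CPM. From E13.5 to E18.5 the main edgeR fit called neither Musashi gene higher in either genotype. Msi2 in Cdkn1b-null ovaries was called higher at that step with DESeq2 (0.73, adjusted p 0.0422) and with limma-voom (1.00, adjusted p 0.0376). With edgeR it was called on all groups in 1 fit (0.74, adjusted p 0.0132) and without the E13.5 Cdkn1b-null replicate 1 (1.16, adjusted p 0.0173). Its adjusted p there ran from 0.0132 to 0.270 over all alternatives. The neural markers, highest in the E13.5 WT libraries (29.2 to 440.2 CPM), were at 3.68 to 26.1 CPM from E18.5 on. The part of these cell types in the Musashi levels was not tested.

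Per kilobase of exon, which allows levels of different genes to be set side by side, Dazl and Ddx4 moved from the top of the order to near its end with age and Msi2 and Msi1 took the first places. At E13.5 in WT the levels were 54.1 ± 10.4 CPM per kb for Dazl (SD, n = 4), 37.2 ± 4.44 for Ddx4, 18.9 ± 5.25 for Dnd1 and 7.07 ± 1.22 for Cpeb1, followed by Msi2 (3.82 ± 0.640), Nanos3 (3.53 ± 0.590), Msi1 (1.35 ± 0.690) and Ybx2 (0.427 ± 0.146). Msi2 and Nanos3 differed by less than their spread. At E18.5 in WT Dazl still led at 33.4 ± 15.1 CPM per kb, with Ddx4 (15.2 ± 3.12), Cpeb1 (13.6 ± 5.88) and Ybx2 (9.70 ± 7.21) next. Cpeb1 differed from each of the other 2 by less than its own SD, while Ddx4 and Ybx2 differed by more than the SD of Ddx4 and less than that of Ybx2. At PND8 Msi2 led at 23.8 ± 1.73, before Msi1 (10.8 ± 1.40) and Ybx2 (10.4 ± 4.78), which did not differ beyond their spread, while Dazl had dropped to 0.735 ± 0.374. At 12wk Msi2 (27.2 ± 3.02) and Msi1 (9.11 ± 1.45) stood above Dnd1 (1.44 ± 0.235) and Ybx2 (1.16 ± 1.11), and Dazl (0.198 ± 0.195) and Ddx4 (0.170 ± 0.0748) were the lowest but for Nanos2. The Cdkn1b-null groups gave the same top 4 at E13.5 and the same top 3 at 12wk. At E18.5 their order was Dazl, Cpeb1, Ddx4 and Msi2, and at PND8 it was Msi2, Ybx2 and Msi1.

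Ratios within a library do not depend on its scaling and show that the germ cell genes did not fall in parallel. The ratio of Dazl to Ddx4 per kb was 1.28 to 1.65 in the 7 E13.5 libraries of both genotypes, 1.47 to 2.93 at E18.5 and 0.323 to 0.570 at PND8, and the PND8 range did not meet the earlier ones. The ratio of Cpeb1 to Ddx4 was 0.164 to 0.243 at E13.5, 0.639 to 1.14 at E18.5 and 1.69 to 2.12 at PND8, so that Cpeb1 gained on Ddx4 at both steps without overlap. The ratio of Ybx2 to Ddx4 moved furthest, from 0.00513 to 0.0159 at E13.5 through 0.201 to 1.07 at E18.5 to 4.42 to 8.32 at PND8. At 12wk the ratios spread widely (Ybx2 over Ddx4 1.23 to 10.6 in WT). In those WT libraries the highest level was 2.98 times the lowest for Ddx4, 7.42 times for Dazl, 9.74 times for Cpeb1 and 16.5 times for Ybx2. Between genotypes the ratios of these germ cell genes overlapped at every age except that of Cpeb1 to Ddx4 at PND8, which was 1.69 to 1.98 in WT and 2.03 to 2.12 in Cdkn1b-null ovaries. The ratio of Msi2 to Msi1 at E18.5 was 2.63 to 6.72 in WT and 8.42 to 13.8 in Cdkn1b-null ovaries. These ratios were compared as ranges, with no test.

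**Figure D3:**
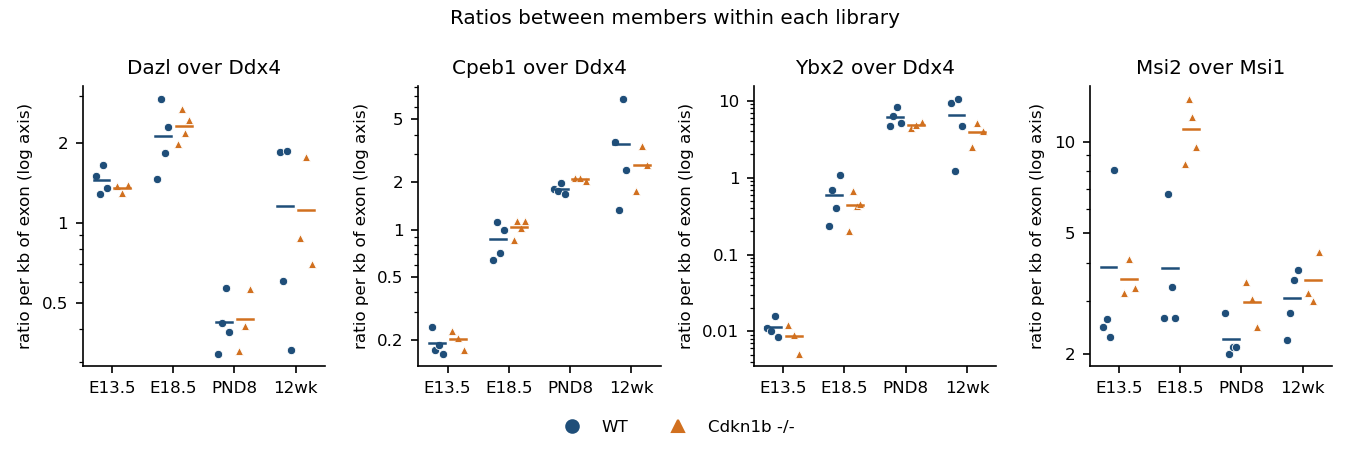
Ratio of the level per kb of exon between pairs of genes in each library (log axis) against age, with WT as circles, Cdkn1b-null as triangles and group means as bars. Ybx2 and Cpeb1 gain on Ddx4 from E13.5 to PND8, Dazl over Ddx4 is lowest at PND8 (0.323 to 0.570), and Msi2 over Msi1 at E18.5 is 8.42 to 13.8 in Cdkn1b-null against 2.63 to 6.72 in WT libraries.

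Counted over the list, the age steps moved most members at the step across birth. Nanos2 did not pass the filter in any age step, which left 8 genes. In WT 5 of 8 changed between E13.5 and E18.5, 2 higher (Ybx2 and Cpeb1) and 3 lower (Ddx4, Nanos3 and Dnd1), where 16.6% of all tested genes were called higher and 17.5% lower. Between E18.5 and PND8 6 of 8 changed, with Msi1 and Msi2 higher and Dazl, Ddx4, Nanos3 and Cpeb1 lower, but at this step 37.6% of all genes were called higher and 36.9% lower, so the count of members lies near that background. Between PND8 and 12wk 3 of 8 were lower (Ddx4, Ybx2 and Cpeb1) and none was higher, where 14.3% of all genes were called lower and 16.1% higher. The median log2 fold changes of the 8 genes were -0.65, -0.94 and -1.04 at the 3 steps, beside 0.01, 0.01 and -0.01 over all tested genes. Dazl was not called at the first step in WT (-0.70, SE 0.30, adjusted p 0.0963) nor at the last (-1.82, SE 0.66, adjusted p 0.0653), and it passed without the E18.5 WT replicate 2 at the first (adjusted p 0.0275) and without the 12wk WT replicate 3 at the last (0.00641), within ranges of 0.0135 to 0.221 and 0.00641 to 0.164 over all alternatives.

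In Cdkn1b-null ovaries 5 of 8 changed at the first step, with Ybx2 higher and Dazl, Ddx4, Nanos3 and Dnd1 lower, against 15.8% of all genes higher and 14.5% lower. The Dazl call there (-1.46, SE 0.39, adjusted p 0.0310) was lost without any one of E13.5 replicates 3 and 4 or E18.5 replicates 3 and 4, with adjusted p over all alternatives of 0.00114 to 0.104. At the step across birth all 8 were called, 3 higher (Ybx2, Msi1 and Msi2) and 5 lower, against 38.9% of all genes higher and 38.5% lower, and 5 of 8 were called without the PND8 Cdkn1b-null replicate 4. Dnd1 was among those lost (-0.65, SE 0.21, adjusted p 0.0176 with all libraries; 0.00525 to 0.0769 over all alternatives). At the last step Dazl, Ddx4, Ybx2 and Cpeb1 were lower and none was higher, against 14.3% lower and 14.8% higher over all genes, and the 4 folds lay between 13.1 and 39.8. The median log2 fold changes of the 8 genes were -1.16 and -0.81 at the first 2 steps and -2.0 at the last, beside 0.02, -0.01 and -0.01 over all tested genes.

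**Figure D4:**
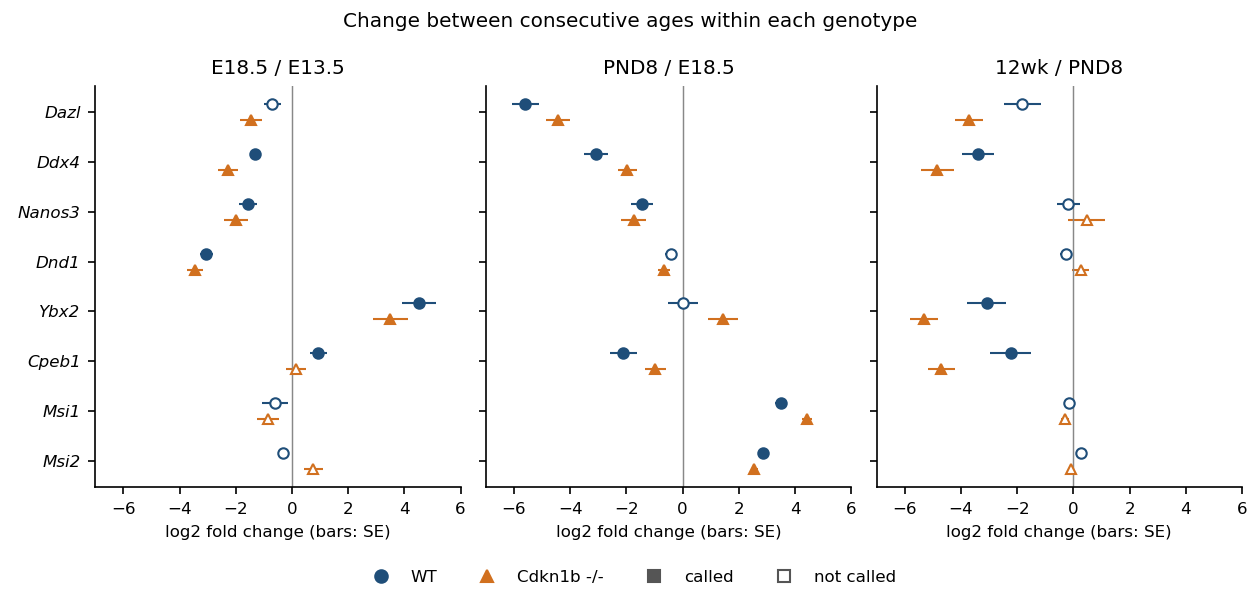
Log2 fold change between consecutive ages for the 8 tested genes (bars: SE), with WT as circles, Cdkn1b-null as triangles, filled where called. At the step across birth Dazl, Ddx4, Nanos3 and Cpeb1 are lower and Msi1 and Msi2 higher in both genotypes, and at the last step none is called higher.

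The question of whether loss of Cdkn1b changed the level of these genes was addressed at each age, and the main edgeR fit called no member at any of the 4 ages. At E18.5 edgeR called 2 with the replicate block, 1 without the filter and 0 to 2 on leaving out 1 library. DESeq2 called 3 at E18.5 and 1 at PND8, and limma-voom called 2 at E18.5. Intervals below are the log2 fold change plus or minus 1.96 SE. They are narrower than the quasi-likelihood test at these sample sizes implies, so one that leaves out 0 is not a call. At E13.5 0 of 8 tested members were called with edgeR, against 0.00606% of all genes, and none had an unadjusted p under 0.05. No member's groups were free of overlap there, against 3.73% of all genes. The log2 fold changes of Cdkn1b-null over WT ran from -0.80 (Msi1, interval -1.95 to 0.36) to 0.41 (Cpeb1, -0.19 to 1.02). Neural markers summed to 29.2 to 440.2 CPM in WT and 8.87 to 19.2 CPM in Cdkn1b-null libraries of this age. Their part in the Msi1 value was not tested. The log2 fold changes of Dazl (0.23, -0.39 to 0.85) and Ddx4 (0.35, -0.25 to 0.95) were positive with all libraries and -0.13 and -0.05 without the Cdkn1b-null replicate 3. That library had the highest Dazl, Ddx4 and Cpeb1 of the age and a meiotic marker sum of 1131 CPM, against 288 to 495 CPM in the other 6. DESeq2 also called no member at this age.

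At E18.5 the log2 fold changes of the 6 tested genes other than the Musashi pair were all negative in the main edgeR fit. Those of Msi1 and Msi2 had opposite signs, and none passed the test. The median over all tested genes was -0.04, and with limma-voom the value of Cpeb1 was 0.0204. The genes were measured in the same libraries, so their signs are not independent. With the main edgeR fit 0 of 8 members were called, against 4.99% of all genes, and 3 had an unadjusted p under 0.05. These were Msi1 (log2 fold change -1.06, SE 0.28, adjusted p 0.0537), Msi2 (0.57, SE 0.16, adjusted p 0.0665) and Ddx4 (-0.62, SE 0.19, adjusted p 0.0888). Msi1 was at 1.94 to 3.30 CPM in Cdkn1b-null and 3.20 to 7.12 CPM in WT libraries, which touch by 1 library of each group, and Msi2 at 38.5 to 56.9 against 24.7 to 38.6 CPM, which also just touch. No member's groups were free of overlap, against 15.2% of all genes. Same-numbered libraries of this age had correlated deviations, at 0.120 to 0.229 in the 4 pairs, but only 2 of the 4 correlated best with their own number. When that number entered the edgeR fit as a block 2 members were called, Msi1 lower (-1.04, adjusted p 0.0334) and Msi2 higher (0.58, adjusted p 0.0225). DESeq2 called these 2 and Ddx4 (-0.61, adjusted p 0.0334). Over all alternatives the adjusted p was 0.00944 to 0.160 for Msi1, 0.0129 to 0.197 for Msi2 and 0.0334 to 0.379 for Ddx4; without the WT replicate 2 Msi1 and Msi2 passed, and without the Cdkn1b-null replicate 1 Msi2 did. Dazl (-0.53, interval -1.23 to 0.17), Ybx2 (-1.09, -2.39 to 0.20) and Cpeb1 (-0.39, -1.06 to 0.27) had wide intervals. The meiotic markers summed to 774 to 1435 CPM in Cdkn1b-null and 1054 to 2093 CPM in WT libraries, and the granulosa markers to 1822 to 2164 against 1509 to 1784 CPM without overlap. Their part in the member differences was not tested.

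At PND8 0 of 9 tested members were called with edgeR, against 0.349% of all genes, and 2 had an unadjusted p under 0.05. Msi2 was at 281 to 319 CPM in Cdkn1b-null and 232 to 270.3 CPM in WT libraries, the one member whose groups did not overlap, against 14.3% of all genes; its log2 fold change was 0.25 (SE 0.08, adjusted p 0.204). Dnd1 had -0.52 (SE 0.21, adjusted p 0.303). DESeq2 called Msi2 (0.26, adjusted p 0.0474), within a range of 0.0474 to 0.999 over all alternatives. Nanos2 had 1.42 (interval -0.22 to 3.05), on 23 counts in WT and 49 in Cdkn1b-null libraries. Dazl, Ddx4, Ybx2 and Cpeb1 had positive values of 0.30 to 0.73 whose intervals all included 0. Without the Cdkn1b-null replicate 3, the library with the highest level of each of the 4 at this age, the values were 0.21, 0.0146, -0.16 and 0.24 in that order. In WT the replicates 1 and 4 were high and 2 and 3 low for these 4 genes, as for the oocyte marker sum (1093 and 1253 CPM against 335 and 371 CPM).

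At 12wk 0 of 8 tested members were called with edgeR, against 0.0115% of all genes, none had an unadjusted p under 0.05, and DESeq2 called none. Ybx2 (-1.90, SE 0.86, p 0.0584 and adjusted p 0.535 by edgeR) and Cpeb1 (-1.73, SE 0.82, p 0.0684 and adjusted p 0.553) had the largest differences of the 8. Without the WT replicate 3, the library with the highest oocyte markers, these were -1.05 and -0.67. No member's groups were free of overlap, against 8.77% of all genes. Dazl (-1.26) and Ddx4 (-0.95) rested on levels of 0.108 to 1.85 CPM. Msi1 (-0.29, -0.60 to 0.02) and Msi2 (-0.10, -0.33 to 0.13) had the narrowest intervals of the 8.

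A test of whether the genotype effect differed between ages called 0 of 8 members, against 0.806% of all genes, with 2 at an unadjusted p under 0.05 (Msi2, adjusted p 0.226, and Cpeb1, adjusted p 0.359). Without the E13.5 Cdkn1b-null replicate 1, 1 member (Msi2) was called, at an adjusted p of 0.0272. DESeq2 called 0.

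**Figure D5:**
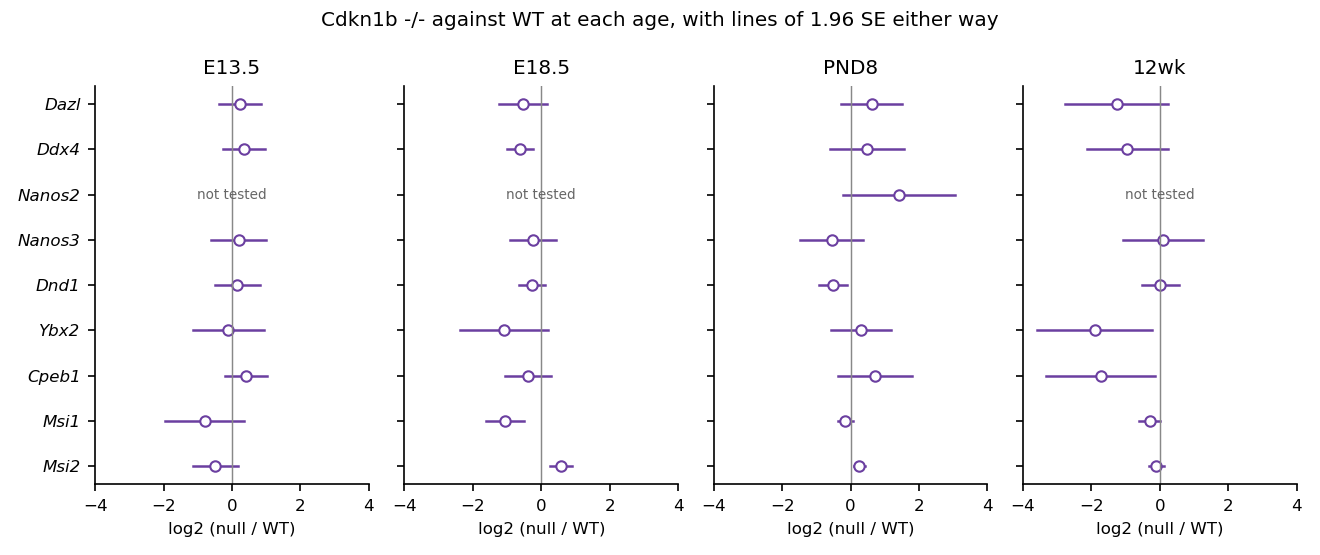
Log2 fold change of Cdkn1b-null over WT at each age for the genes tested (8 genes, and Nanos2 at PND8 as well), with lines of 1.96 SE either way and open points because the main edgeR fit called none. Lines leave out 0 for Ddx4, Msi1 and Msi2 at E18.5, Dnd1 and Msi2 at PND8, and Ybx2 and Cpeb1 at 12wk, and at none of these was the adjusted p under the threshold.

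The genes that these proteins are known to act on gave one call by genotype. In a list of 10 targets described for DAZL, CPEB1, YBX2 or Musashi proteins, 1 of 7 tested was called by edgeR at E18.5 and 0 of 8, 9 and 6 at E13.5, PND8 and 12wk, where 1, 0 and 2 had an unadjusted p under 0.05. Of all tested genes 4.99% were called at E18.5 and 0.00606%, 0.349% and 0.0115% at E13.5, PND8 and 12wk. DESeq2 called 2 at E18.5, 1 at 12wk and 0 at the other ages. The edgeR call was Ccnb1, which encodes cyclin B1, a cytoplasmic polyadenylation target in oocytes and a mitotic cyclin of every dividing cell. Ccnb1 was at 97.85, 63.9, 84.6 and 55.5 CPM in WT and at 191.5, 169.5, 249 and 215 CPM in Cdkn1b-null ovaries at E18.5, without overlap (log2 fold change 1.42, SE 0.18, adjusted p 0.00227 by edgeR). The genotypes did not overlap for 15.2% of all genes at that age. At E13.5 both genotypes stood at 359.6 to 431 CPM, and the fall from there to E18.5 was -2.38 (SE 0.18) in WT and -0.90 (SE 0.13) in Cdkn1b-null ovaries. The medians of the targets tested by genotype were 0.29, -0.29, 0.15 and -1.31 in the order of age, beside -0.01, -0.04, 0.00 and 0.00 over all genes.

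Counted by age step, the targets moved in both directions before 12wk. In WT 3 of 8 rose and 3 fell from E13.5 to E18.5, 4 of 9 rose and 4 fell to PND8, and 3 of 9 fell to 12wk; in Cdkn1b-null ovaries the counts were 2 and 4 of 8, 4 and 5 of 9, and 7 of 9 lower. Over all tested genes 34.0%, 74.6% and 30.5% were called at the 3 WT steps and 30.2%, 77.4% and 29.1% at the Cdkn1b-null steps, so that the counts across birth lie near the background. Without the 12wk WT replicate 3, 7 of the targets were called at the last WT step. Sycp3, a DAZL target of the synaptonemal complex, rose by 4.96 (SE 0.31) on the log2 scale at the first WT step and changed by -7.03 (SE 0.65) at the next. Gdf9, an oocyte growth factor gene, rose by 2.87 (SE 0.43) in WT and 4.35 (SE 0.40) in Cdkn1b-null ovaries across birth and changed by -5.29 (SE 0.50) in Cdkn1b-null ovaries at the last step. The median over the targets tested was -0.01, 0.20 and -2.02 in WT and -0.40, -1.06 and -5.29 in Cdkn1b-null ovaries.

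A list of 36 other regulators of germ cell RNA, from deadenylases to piRNA factors, gave 0 calls by genotype at any age with the main edgeR fit. Tested were 31, 31, 33 and 27 in the order of age, of which 0, 5, 8 and 3 had an unadjusted p under 0.05 by that fit. Of all genes 0.00606%, 4.99%, 0.349% and 0.0115% were called at those ages. DESeq2 called 1 at E18.5, 3 at PND8 and 0 at the other ages. At E18.5 limma-voom and edgeR with the replicate block also called 1 each. In WT 11 rose and 3 fell of 32 at the first step, 15 rose and 11 fell of 34 across birth, and 4 rose and 13 fell of 33 at the last; the count at the first step was 14 in all and 9 without the E13.5 WT replicate 2. In Cdkn1b-null ovaries 6 rose and 4 fell of 32, 20 rose and 11 fell of 35, and 2 rose and 18 fell of 33. The 26 of 34 and 31 of 35 called across birth stand beside 74.6% and 77.4% of all genes, and the 14 of 32 and 10 of 32 at the first step beside 34.0% and 30.2%. At the last step 30.5% of all genes were called in WT and 29.1% in Cdkn1b-null ovaries. The medians were 0.42, 0.29 and -0.35 in WT and 0.03, 0.86 and -0.60 in Cdkn1b-null ovaries. Lin28a, a let-7 regulator of primordial germ cells, changed by -5.75 (SE 0.71) in WT and -5.95 (SE 0.46) in Cdkn1b-null ovaries at the first step, and Tdrd9, a piRNA pathway helicase, rose by 4.00 (SE 0.34) and 3.21 (SE 0.36). Meioc, a partner of YTHDC2 in meiosis, changed by -7.20 (SE 0.31) and -7.28 (SE 0.33) across birth, where the RNA helicase gene Ddx6 rose by 1.82 (SE 0.11) and 1.83 (SE 0.09). Mov10l1, a piRNA helicase gene, changed by -8.90 (SE 1.06) and -8.57 (SE 0.71) from PND8 to 12wk, fitted values that depend on a 12wk level of at most 0.0313 CPM, while Cpeb2, a relative of Cpeb1, rose by 0.92 (SE 0.17) and 0.69 (SE 0.16). The Cdkn1b-null call of Cpeb2 (adjusted p 0.0177) was lost without PND8 replicate 3 or 4 (0.00127 to 0.146 over all alternatives).

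The genes whose levels most resembled those of each member over the 29 libraries, by Pearson's r of log2 CPM among 12883 genes, differed between members. The nearest were Stk31 (0.991), Hsf2bp (0.987) and Rnf17 (0.985) for Dazl, Tex19.1 (0.982), Igf2bp3 (0.981) and Sohlh2 (0.981) for Ddx4, and Adad2 (0.973), Mael (0.971) and Mov10l1 (0.956) for Cpeb1. For Ybx2 they were Nobox (0.932), Pramef12 (0.927) and Ccno (0.925). The nearest to Nanos3 were Rhox6 (0.947), Phlda2 (0.947) and Lrrc34 (0.944), and those to Dnd1 were the embryonic haemoglobin gene Hbb-y (0.970), Utf1 (0.968) and the embryonic haemoglobin gene Hba-x (0.967). Those to Msi1 were Scaf1 (0.988), Capn15 (0.985) and Wiz (0.984), and those to Msi2 were Ddx6 (0.987), Cmtm4 (0.986) and Tanc1 (0.984). These are descriptions over libraries that share age, depth and cell makeup.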

How the data were processed

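Bulk RNA-seq of mouse ovary was analysed in 29 samples, 8 groups of genotype and age taken from the sample titles. Per the submitters' processing notes the tools included Trim Galore, STAR 2.5.2, RSEM 1.3.0 and FastQC 0.11.5; the genome build, annotation release, library kit and strandedness are not given in the sources used here. The deposited values are RSEM expected counts per Ensembl gene, which share reads among similar genes, and 31.4% of values above 0 were not whole. That share does not measure the uncertainty of any single gene, and for paralogs such as Msi1 and Msi2 it was not measured. Of 51912 IDs, 15387 had no rounded count and 51633 had a symbol in the reference table. Expected counts were rounded. No replicate pair agreed within sampling noise (chi-square per degree of freedom 13.0 to 284.8 over 39 pairs).

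Tests used edgeR 4.0.16 (R 4.3.3): TMM, filterByExpr (minimum count 10, total 15), robust quasi-likelihood F test on the groups compared (all 29 libraries for the interaction), Benjamini-Hochberg adjustment over all genes, threshold 0.05. The SE is the log2 fold change divided by the square root of F. Levels are CPM with TMM factors over 29 libraries, and levels per kb divide by GENCODE M21 exon length. Floors cover counting error only. Named genes were the 9 members, Cdkn1b, up to 3 list genes per direction and comparison by smallest p, and the 3 genes most like each member of mean CPM 1 or more (log2 with a prior count of 2, genes of mean CPM 2 or more); not all are printed. Other marker genes named with values were chosen after their values were seen. Members and lists were chosen with earlier results of these data known. The main fit had no block in any comparison, and the replicate block was run as an alternative only. Same-numbered libraries were described as deviating together where all correlations of their deviations were over 0.1. This held for the genotype comparison at E18.5, 0.120 to 0.229 in 4 pairs, of which 2 correlated best with their own number. It also held for the first Cdkn1b-null step, 0.135 to 0.174 in 3 pairs, of which 3 did. Alternatives were RLE scaling, no filter, DESeq2 1.42.0, limma-voom (3.58.1) with sample weights, the replicate block, all groups in 1 fit, haemoglobin genes removed, CPM by library total, and leaving out libraries. The fitting code was tested on simulated data.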

Additional observations from a re-analysis of the deposited data

Results flagged for a closer look

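Among 42 groups of 4 libraries tested for one value far from the other 3 (Dixon's test, which chance alone passes in about 1 group in 20), 2 were singled out, both in WT ovaries at 12wk. Nanos2 in replicate 3 was at 0.125 CPM, which is 4 counts, where the other 3 libraries had none. Nanos3 in replicate 2 was at 0.535 CPM, which is 17 counts, against 0.282 to 0.311 CPM (9 or 10 counts) in the others. The first is the library with the largest oocyte marker sum of its age (185.5 CPM), the second that with the smallest sum among the WT libraries (14.0 CPM).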

How the results depend on the processing

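Of the 11 counts of members called, 6 stayed within 1.5 times under every alternative run. At E18.5 the genotype count of 0 was 1 without the filter, 3 with DESeq2, 2 with limma-voom, 2 with the replicate block and 0 to 2 on leaving out one library. At PND8 it was 1 with DESeq2. For WT at 12wk against PND8 the count of 3 was 1 without the filter and 5 with DESeq2 and with limma-voom. For the Cdkn1b-null step across birth the 8 were 5 to 7 on leaving out one library, and the interaction count was 0 to 1. The replicate block changed no other count by more than 1.5 times, though it cost Cpeb1 its call at 2 WT steps and Dnd1 its call at the Cdkn1b-null step across birth. The cause of these losses was not tested. Outside the 2 comparisons named in the methods, not all same-numbered pairs had a correlation over 0.1. Some did, up to 0.283 by genotype at PND8 and 0.212 at the last Cdkn1b-null step. The 31 single calls kept their direction in all 444 refits and lost the threshold in 41 of them. Reversals touched only effects that were not called. With limma-voom these were Cpeb1 at E18.5 (0.0204) and, at 12wk, Nanos3 (-0.0599) and Dnd1 (-0.0105; -0.0699 with the block), and for Ybx2 at PND8 against E18.5 in WT they were -0.0104 with RLE and -0.0075 with DESeq2. On leaving out one library the log2 fold change by genotype at E13.5 ran from -0.13 to 0.55 for Dazl, -0.0527 to 0.67 for Ddx4, -0.37 to 0.47 for Nanos3, -0.32 to 0.40 for Dnd1, -0.66 to 0.20 for Ybx2 and -0.0385 to 0.69 for Cpeb1, at PND8 from -0.16 to 0.59 for Ybx2, and at 12wk from -0.51 to 0.54 for Nanos3 and -0.11 to 0.21 for Dnd1. For the age steps it ran from -0.28 to 0.57 for Ybx2 across birth in WT, -0.44 to 0.0712 for Nanos3 to 12wk in WT, -0.16 to 0.59 for Cpeb1 to E18.5 and -0.14 to 0.92 for Nanos3 to 12wk in Cdkn1b-null ovaries. Other scaling moved the median of all genes by at most 0.0317, and scaling by library total moved 3 of 72 group levels by more than 1 SD. Leaving out both E13.5 libraries numbered 3 equals leaving out one library in the age steps, so it was run for the genotype test only. Nanos2 had too few counts for a test in all but 1 comparison.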
